A study of Mus musculus with 12 samples.

Results

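Gene expression at the third passage sampled was set against the first passage sampled in each of 4 lines of NIH3T3 fibroblasts, an immortalised line derived from mouse embryos. The comparison uses 8 of the 12 libraries of the series and, after a filter on low counts, 14086 of the 48795 genes listed. The lines are F5, G5 and H7, which are labelled as clones with a knockout of Aebp1, and the parental line, labelled WT. AEBP1 is a secreted collagen-binding protein, and the series title places it in fibroblasts of tumours.

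The third-passage libraries are passage 9 of F5, G5 and H7 and passage 8 of the parental line. The first-passage libraries are passage 7 of the clones and passage 6 of the parental line, so that the third and the first lie 2 passages apart in every line. All lines grew in DMEM/F12 with fetal bovine serum. Total RNA was depleted of ribosomal RNA and made into stranded libraries. There is 1 library for each line and passage. Nothing in the labels sets the passages apart as independent cultures. The p-values therefore describe the spread among these libraries alone, which may be technical. In such bulk samples, fewer cells of a type and less RNA per cell cannot be told apart. The clones stand for the knockout and for cloning at once, while the parental line is tagged as parental. The middle passage of each line was kept out of the test and gives a further point of the course.

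Passaging keeps fibroblasts growing by splitting them into fresh medium. In cultured fibroblasts, growth factors of serum switch on the immediate early genes, which encode short-lived transcription factors, through the ERK kinase cascade and serum response factor. Growth-arrest-specific genes and many matrix genes are known as highest in resting fibroblasts. Genes of amino acid supply are driven by the transcription factor ATF4, and a circadian clock of repressors and activators runs in these cells as in most others.

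The third-passage libraries held 22922701 to 25779827 counts and the first-passage libraries 22441848 to 28207122. Values are counts per 1000000 counts of the library (CPM) after TMM normalisation and are given in the order F5, G5, H7 and parental line. Aebp1 itself (chromosome 11, 5861947 to 5872088 of GRCm38) had 189.5, 123, 153 and 579 CPM at the third passage, against 214, 138, 158 and 613 CPM at the first. Its level in the clones was below that of the parental line at both passages and was not 0, and its change between passages was not called (log2 fold change -0.12, SE 0.035, adjusted p = 0.0681). Of 15 fibroblast markers, 14 were tested, and their summed level was 29106 to 32073 CPM at the third passage and 26957 to 30048 CPM at the first. Of 44 markers of macrophages and leukocytes, endothelium, epithelium, adipocytes and muscle, 16 were listed at 0 in all 8 libraries, among them Adgre1, Cd3e, Epcam and Myod1, and the highest value of any of them was 13.3 CPM, for Flt1. Their summed levels were 9.17 to 10.99 CPM at the third and 6.98 to 9.35 CPM at the first passage for macrophages and leukocytes. For endothelium the sums were 5.19 to 14.1 and 4.34 to 14.5 CPM, for epithelium 0.771 to 1.97 and 0.765 to 2.11 CPM, and for adipocytes and muscle 0.395 to 2.12 and 0.358 to 2.27 CPM, each with the third passage given before the first. None of the 6 tested markers of these cell types was called by edgeR, where 1 had an unadjusted p under 0.05. DESeq2 gave no adjusted p for Krt14 and Acta1 and called none of the others.

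At the threshold given below, 13 of 46 matrix genes other than fibrillar collagens were called higher at the third passage and 2 lower. Higher and lower calls were 12 and 0 of 29 growth-arrest genes and 5 and 0 of 12 complement genes. Lower calls led among immediate early genes (22 against 3 of 43) and ATF4-driven genes of amino acid supply (20 against 1 of 36). Of 2 proliferins tested, 2 were called lower. By sign alone, called or not, 32 matrix genes were above 0 and 14 below. For growth-arrest genes these counts were 25 and 4, and for complement genes 7 and 5. They were 9 and 34 for immediate early genes, 5 and 31 for ATF4-driven genes and 0 and 2 for proliferins. At an adjusted p under 0.05 in edgeR's quasi-likelihood test with line as a block, 1341 of 14086 genes (9.52%) were called, 654 of them higher (4.64%) and 687 lower (4.88%) at the third passage. Most changes were small: the median size on the log2 scale was 0.32 among the higher and 0.24 among the lower genes, and 57 higher and 31 lower genes changed more than 2-fold. The sign was the same in all 4 lines for 644 of the 654 higher and 680 of the 687 lower genes. Over all 14086 genes tested it was the same for 4653. A test with line as a block favours changes that are alike across lines, so the choice of genes bears on these counts. Because the lines differ in level, the 4 third-passage libraries lay wholly above the 4 first-passage libraries for 128 of the higher genes, and wholly below for 192 of the lower genes. The third and first passages failed to overlap in 651 of all genes tested.

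These counts rest on the pairing by line and on few libraries. Without the block for line no gene was called, with 923 at an unadjusted p under 0.05. Leaving out 1 line gave 490 calls without F5, 372 without G5, 801 without H7 and 1739 without the parental line. When all 12 libraries entered the fit, 168 of 14439 genes (1.16%) were called, 111 higher and 57 lower, of which 165 were among the 1341 in the same direction. DESeq2 called 854. All 1341 genes kept the sign of their change with no block and in the fit of 12 libraries.

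**Figure D1:**
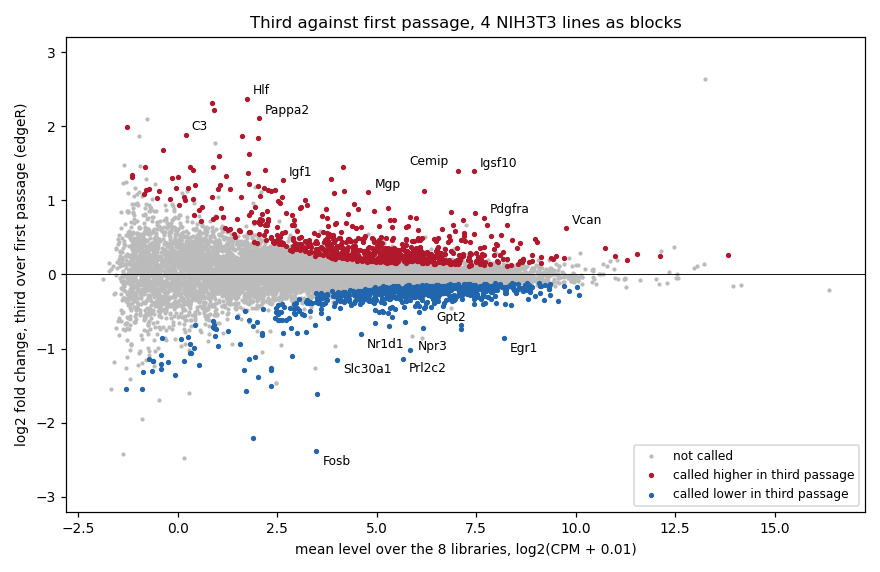
Log2 fold change of the third over the first passage (edgeR) against the mean level over the 8 libraries on a log2(CPM + 0.01) axis, for the 14086 genes tested, 1 point per gene. Red points are the 654 genes called higher and blue points the 687 called lower at the third passage. Cemip and Igsf10 rose at high levels, and Fosb lay lowest among the called genes named.

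Among genes with a mean of at least 1 CPM, a symbol that is no predicted-gene name and the same sign in all 4 lines, the 12 higher genes with the largest change included a clock-output factor, a complement component and secreted proteases. Hlf, a bZIP transcription factor under circadian control (chromosome 11, 90336536 to 90390895), had 2.47, 4.94, 7.75 and 7.07 CPM at the third passage, against 0.612, 0.635, 1.23 and 1.88 CPM at the first. The third-passage values lay above all first-passage values, and the call held with each line left out (log2 fold change 2.37, SE 0.19, adjusted p = 0.000517). P2ry14, a receptor for UDP-sugars (chromosome 3, 59113855 to 59153618), had 1.27, 3.86, 1.26 and 5.71 CPM at the third passage, against 0.421, 0.811, 0.318 and 0.716 CPM at the first, and did not overlap either (log2 fold change 2.31, SE 0.24, adjusted p = 0.0011). Pappa2, a metalloproteinase that cleaves IGF-binding proteins (chromosome 1, 158711727 to 158980490), had 1.81, 3.66, 10.4 and 10.5 CPM at the third passage, against 0.536, 0.459, 2.83 and 2.51 CPM at the first (log2 fold change 2.104, SE 0.18, adjusted p = 0.000655). Its values overlapped between passages because H7 and the parental line had higher levels than F5 and G5, but every line was higher at the third passage.

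Trp63, a p53-family transcription factor best known from basal epithelium (chromosome 16, 25683763 to 25892102), had 0.886, 1.43, 6.49 and 3.34 CPM at the third passage, against 0.0765, 0.282, 1.75 and 0.627 CPM at the first. It was higher in each line, with overlap between lines (log2 fold change 2.22, SE 0.22, adjusted p = 0.001), while the epithelial markers above stayed near 0. Itgbl1, a secreted protein with integrin-like EGF repeats (chromosome 14, 123659971 to 123975618), had 7.36, 6.85, 9.401 and 2.94 CPM at the third passage, against 1.87, 2.19, 4.82 and 1.39 CPM at the first (log2 fold change 1.41, SE 0.17, adjusted p = 0.00239). Aldh3a1, an aldehyde dehydrogenase (chromosome 11, 61207537 to 61218421), had 0.771, 2.03, 13.5 and 7.43 CPM at the third passage, against 0.153, 0.212, 7.12 and 0.985 CPM at the first (log2 fold change 1.84, SE 0.34, adjusted p = 0.0124). It was not called without G5 (log2 fold change 1.62). The others were C3, taken up with complement, Tns4 (1.604), a focal-adhesion adaptor, Nhsl2 (1.46), Slc27a6 (1.45), a fatty acid transporter, Fcor (1.41), a FOXO1 corepressor, and Rpl10a-ps1 (1.86), a processed pseudogene of a ribosomal protein gene whose reads may come from the parent gene. Values in brackets are log2 fold changes. Tns4 was not called without F5 (log2 fold change 1.63) or the parental line (log2 fold change 1.45), Slc27a6 was not called without G5 (log2 fold change 1.35) and not tested without the parental line and Fcor was not called without the parental line (log2 fold change 0.96).

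The 12 lower genes with the largest change were led by Fosb, a partner of JUN in the AP-1 transcription factor (chromosome 7, 19302696 to 19310051). Fosb had 2.2, 3.34, 4.09 and 4.83 CPM at the third passage, against 15.4, 19.4, 16.4 and 23.7 CPM at the first. The highest third-passage value was below the lowest first-passage value (log2 fold change -2.39, SE 0.11, adjusted p = 2.07e-05). Nlrp2, an innate immune sensor (chromosome 7, 5298547 to 5351035), had 2.62, 1.91, 0.393 and 0.395 CPM at the third passage, against 12.6, 6.46, 1.59 and 3.71 CPM at the first (log2 fold change -2.203, SE 0.20, adjusted p = 0.000691). It was lower in each line, with overlap because H7 was low throughout.

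Slc30a1, the zinc exporter of the plasma membrane (chromosome 1, 191906767 to 191913247), had 10.4, 8.0, 9.09 and 12.3 CPM at the third passage, against 21.8, 19.8, 20.9 and 25.2 CPM at the first. The fall was of like size in all 4 lines and the passages did not overlap (log2 fold change -1.15, SE 0.066, adjusted p = 6.9e-05). Nanp, a phosphatase of sialic acid synthesis (chromosome 2, 151029685 to 151039398), had 1.7, 1.75, 1.73 and 1.93 CPM at the third passage, against 3.405, 3.07, 4.34 and 7.38 CPM at the first (log2 fold change -1.29, SE 0.19, adjusted p = 0.00439). Notch4, a Notch receptor (chromosome 17, 34564268 to 34588503), had 3.7, 1.91, 4.45 and 1.802 CPM at the third passage, against 8.53, 5.504, 10.7 and 3.94 CPM at the first (log2 fold change -1.28, SE 0.11, adjusted p = 0.000655). Nanp did not overlap between passages and Notch4 did, though it was lower in each line. The others were Apol8 (-1.57), Fam83e (-1.38), Rnf225 (-1.25), Tll1 (-1.22), a protease that processes procollagen, Lgr6 (-1.17), an R-spondin receptor, the antisense transcript Lrrc75aos2 (-1.504), which may share reads with the gene it overlaps, and Prl2c3, taken up with the proliferins, all as log2 fold changes. Tll1 was not called without F5 (log2 fold change -1.28) or G5 (log2 fold change -0.91) and Lgr6 was not called without G5 (log2 fold change -1.14). Of the 24 genes of both directions, 18 were called with each line left out in turn.

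**Figure D2:**
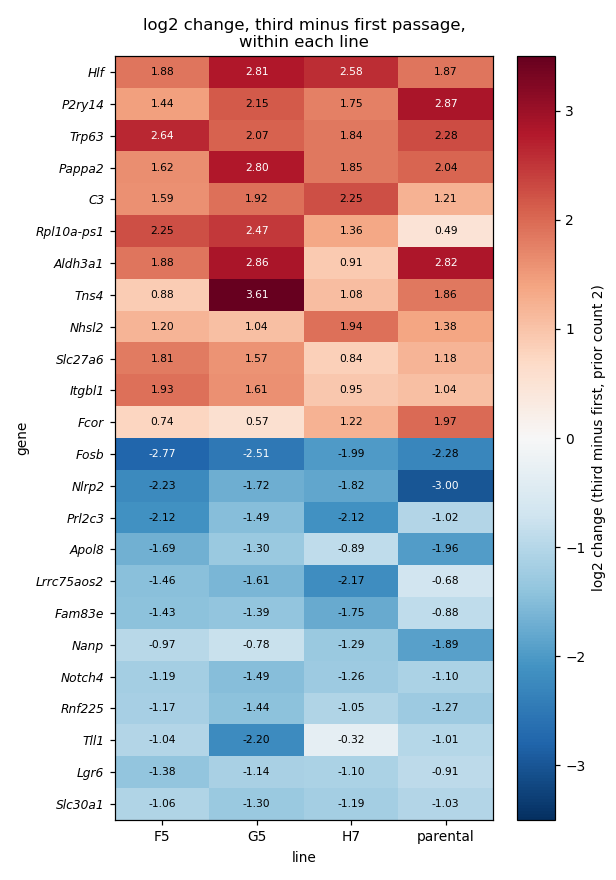
Log2 change of the third minus the first passage within each line (columns) for the 12 higher and the 12 lower genes of the naming rule (rows), from log2 CPM with a prior count of 2. Every cell carries the sign of its group. Fosb fell by 1.99 to 2.77 in the 4 lines.

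Members of the gene lists moved in both directions, and each list is described by its counts and median, beside 4.64% higher, 4.88% lower and a median of 0.0018 over all genes tested. In counts of list members, those that rose or fell are those called higher or lower, unless another measure is named. Among 46 other extracellular matrix genes, 13 rose and 2 fell, with a median log2 fold change of 0.22. The higher count was 11 without F5, 9 without G5, 9 without H7 and 18 without the parental line, and 7 in the fit of 12 libraries. Thbs2, a matricellular protein that binds collagen and proteases (chromosome 17, 14665500 to 14694235), had 189, 259, 289 and 347 CPM at the third passage, against 126, 155, 180.2 and 215 CPM at the first (log2 fold change 0.67, SE 0.036, adjusted p = 4e-05). Vcan, the large hyaluronan-binding proteoglycan versican (chromosome 13, 89655312 to 89742509), had 733, 839, 1494 and 1095 CPM at the third passage, against 491, 487, 1054 and 710.3 CPM at the first (log2 fold change 0.62, SE 0.046, adjusted p = 0.000306). Spp1, the secreted phosphoprotein osteopontin (chromosome 5, 104435118 to 104441050), had 313, 270.5, 594 and 329 CPM at the third passage, against 189.9, 148, 420.1 and 217 CPM at the first (log2 fold change 0.67, SE 0.055, adjusted p = 0.000567). Each of the 3 rose in every line, and the lines differed enough for the passages to overlap.

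Fbln5, an elastic-fibre protein, also rose (log2 fold change 0.35, SE 0.031, adjusted p = 0.000691), as did the basement-membrane collagen chains Col4a1 (0.47) and Col4a2 (0.40), Tnc (0.44), the adhesion-modulating protein tenascin C, Spon2 (0.61) and Lama4 (0.31), a laminin chain, given as log2 fold changes. The small proteoglycans Aspn (1.096) and Lum (0.46), with Matn2 (0.32) and Fbn2 (0.80), rose too, and each of these 4 lost its call with any of 3 lines left out singly. Nid1, which links laminin to collagen IV, fell to 667, 669, 552 and 758 CPM at the third passage, against 825, 738, 839.5 and 968 CPM at the first (log2 fold change -0.35, SE 0.063, adjusted p = 0.0107). Col7a1 (-0.58), the anchoring-fibril collagen, also fell, and was not called without F5 (log2 fold change -0.62), G5 (log2 fold change -0.54), H7 (log2 fold change -0.68) or the parental line (log2 fold change -0.48).

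The fibrillar collagens did not move as one group. Of 25 genes for fibrillar collagens and their crosslinking, 3 rose and 5 fell, with a median of -0.05. Col1a1 had 5438, 4890.5, 6743 and 6976 CPM at the third passage, against 5854, 5209, 6363 and 7209 CPM at the first, and was not called (log2 fold change -0.04, SE 0.056, adjusted p = 0.688). Lox, the enzyme that crosslinks collagen and elastin, had 3115, 3242, 3663 and 3113 CPM at the third passage, against 2820.1, 2724, 2804 and 2444 CPM at the first (log2 fold change 0.28, SE 0.055, adjusted p = 0.0149). All third-passage values of Lox lay above all first-passage values, and it was not called without G5 (log2 fold change 0.29). Col11a1 (0.29) and Col27a1 (0.29) rose. Those that fell were P4ha1 (-0.20) and P4ha2 (-0.25), which hydroxylate proline in collagen inside the cell, Plod2 (-0.29), a lysyl hydroxylase, Serpinh1 (-0.22), the collagen chaperone, and Loxl4 (-0.24), a secreted lysyl oxidase. With G5 left out none of the 25 was called. Without F5 the list held 1 higher and 2 lower calls, and without H7 1 higher and 4 lower.

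A pair of genes outside the lists had the smallest p-values among the risers, and Cemip was singled out after its values were seen. Cemip, which is required for the breakdown of hyaluronan (chromosome 7, 83932857 to 84086502), had 33.3, 57.9, 268 and 407 CPM at the third passage, against 12.9, 20.4, 112 and 149 CPM at the first (log2 fold change 1.39, SE 0.048, adjusted p = 4.01e-06). Igsf10, a secreted immunoglobulin-superfamily protein (chromosome 3, 59316735 to 59344394), had 104, 189, 388 and 321 CPM at the third passage, against 39.9, 60.6, 158 and 134 CPM at the first (log2 fold change 1.39, SE 0.059, adjusted p = 1.18e-05). Levels of both differed several-fold between lines, yet the rise was of similar size in each. Also chosen after their values were seen, Igf1, a secreted growth factor, had 5.47, 10.8, 9.91 and 9.01 CPM at the third passage, against 2.14, 4.48, 3.502 and 4.57 CPM at the first (log2 fold change 1.27, SE 0.11, adjusted p = 0.000655). Sod3, the extracellular superoxide dismutase, had 0.694, 1.11, 70.8 and 9.71 CPM at the third passage, against 0.191, 0.353, 29.6 and 4.12 CPM at the first (log2 fold change 1.29, SE 0.088, adjusted p = 0.00019).

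More growth-arrest-specific and quiescence genes rose than fell. Of 29 tested, 12 rose and 0 fell, with a median log2 fold change of 0.25. The higher count was 8 without F5, 8 without G5, 10 without H7 and 15 without the parental line, and 2 in the fit of 12 libraries. No member was called lower in edgeR, where 1 was lower at an unadjusted p under 0.05, or in DESeq2, which called 11 higher. Gas5, another growth-arrest-specific gene, was listed with the non-coding RNAs instead and fell. Its call was lost without F5, G5 or the parental line. Pdgfra, the receptor for platelet-derived growth factor (chromosome 5, 75152292 to 75198215), had 232, 298, 209 and 299 CPM at the third passage, against 134, 147, 117 and 222 CPM at the first (log2 fold change 0.77, SE 0.077, adjusted p = 0.001). Gas1, a membrane protein found as a growth-arrest-specific gene in NIH3T3 cells, had 617, 585, 507 and 644 CPM at the third passage, against 463, 415, 314 and 515 CPM at the first (log2 fold change 0.48, SE 0.053, adjusted p = 0.00146). Gas2, a cytoskeletal protein, had 106, 134, 125 and 148 CPM at the third passage, against 78.7, 101, 87.5 and 111 CPM at the first (log2 fold change 0.44, SE 0.036, adjusted p = 0.000567). Gas1 overlapped between passages in 1 pair of libraries only, the third passage of H7 and the first of the parental line, and all 3 genes were higher in every line.

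Gas7, another gene of this class, had 175, 196, 297 and 228 CPM at the third passage, against 85.7, 92.2, 174 and 167 CPM at the first (log2 fold change 0.83, SE 0.089, adjusted p = 0.00129). Mgp, an inhibitor of calcification, had 13.5, 23.7, 35.05 and 73.6 CPM at the third passage, against 5.16, 7.97, 16.6 and 45.5 CPM at the first (log2 fold change 1.11, SE 0.12, adjusted p = 0.00152). Txnip (0.63), an inhibitor of glucose uptake and thioredoxin, Sesn3 (0.47), a sestrin, Rbl2 (0.34), the pocket protein p130 of resting cells, Tob1 (0.27), Mxd4 (0.25), a MYC antagonist, and Cdkn1b (0.23), the CDK inhibitor p27, rose by the log2 fold changes given. Txnip was not called without F5 (log2 fold change 0.60). Tob1 was not called without F5 (log2 fold change 0.28) or G5 (log2 fold change 0.27), Mxd4 was not called without F5 (log2 fold change 0.24) or G5 (log2 fold change 0.22) and Cdkn1b was not called without G5 (log2 fold change 0.24) or H7 (log2 fold change 0.22). Lum, described with the matrix, was the 12th, and the summed level of the list was 2612 to 2977 CPM at the third passage and 2123 to 2583 CPM at the first.

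**Figure D3:**
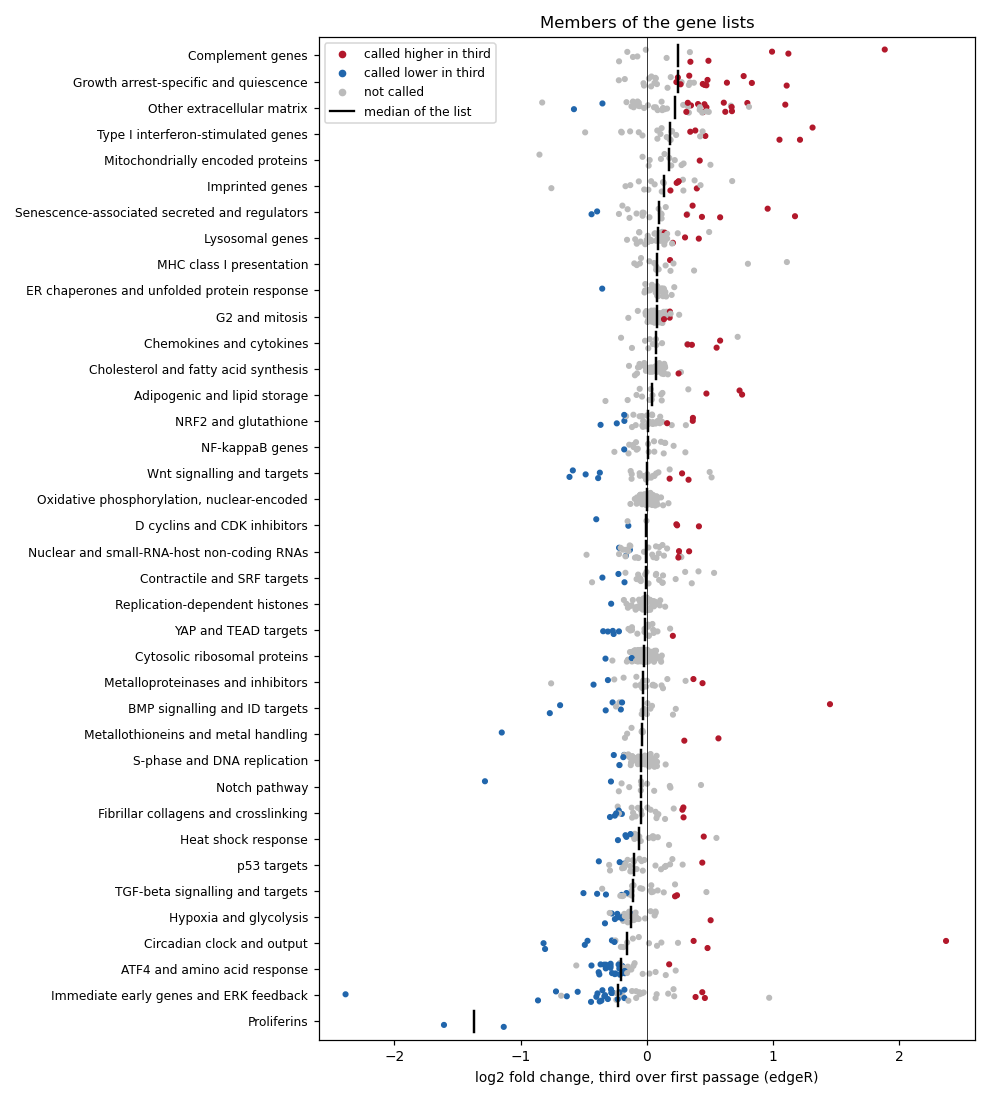
Log2 fold change of the third over the first passage (edgeR) for each tested member of the 38 gene lists, 1 point per gene, ordered by the list's median (black line). Red points are members called higher and blue points members called lower. The ATF4 and immediate early lists lie left of 0, with medians of -0.21 and -0.23, and the matrix and growth-arrest lists right of it.

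Immediate early genes and feedback regulators of ERK fell more often than they rose. Of 43 tested, 22 fell and 3 rose, with a median log2 fold change of -0.23. The lower count was 13 without F5, 9 without G5, 15 without H7 and 22 without the parental line, and 5 in the fit of 12 libraries. The serum response factor binds the CArG box, and 3 of the 14 fallen members with a promoter entry in the RefSeq table hold a CArG box within 250 bases before a gene start, or 21.4%, as do 136 of 9619 tested genes, or 1.41%. These stretches are shown because they hold that motif, in capitals, read 5′ to 3′ on the gene's strand, from RefSeq on GRCm38.p6. The consensus reads the same on both strands. Of 2 Egr2 stretches with the motif, 1 is shown. The motif was picked with the values known, and a match is a description of the letters only.
Dusp5 (chr19:53529043-53529102, plus strand): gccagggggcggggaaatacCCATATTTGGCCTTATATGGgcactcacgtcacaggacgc
Egr2 (chr10:67537777-67537826, plus strand): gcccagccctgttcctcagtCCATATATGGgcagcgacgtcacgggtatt
Srf (chr17:46556195-46556264, minus strand): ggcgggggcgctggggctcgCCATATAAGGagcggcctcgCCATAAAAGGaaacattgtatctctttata

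Egr1, a zinc-finger transcription factor induced within minutes by growth factors (chromosome 18, 34859823 to 34864984), had 203, 190.3, 205 and 234 CPM at the third passage, against 357, 356, 351 and 454 CPM at the first. The passages did not overlap, and the call held with each line left out (log2 fold change -0.86, SE 0.038, adjusted p = 1.18e-05). Ier2, another immediate early gene, had 39.8, 40.2, 40.1 and 44.4 CPM at the third passage, against 59.1, 61.3, 65.2 and 69.9 CPM at the first, again with no overlap (log2 fold change -0.63, SE 0.041, adjusted p = 0.000138). Klf10, a TGF-beta-inducible repressor, had 40.8, 39.4, 52.1 and 41.3 CPM at the third passage, against 57, 52.7, 74.8 and 52.1 CPM at the first (log2 fold change -0.44, SE 0.045, adjusted p = 0.001). Myc had 170.2, 162, 167 and 123 CPM at the third passage, against 211, 206, 205 and 139 CPM at the first (log2 fold change -0.28, SE 0.037, adjusted p = 0.0029). Its passages overlapped through the parental line alone, which was low at both.

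Srf, the serum response factor itself, had 82.02, 74, 74.8 and 95.9 CPM at the third passage, against 107, 105, 93 and 110 CPM at the first (log2 fold change -0.35, SE 0.051, adjusted p = 0.00439). Fos, the founding AP-1 member, fell at low levels, with 3.39, 3.54, 6.49 and 7.91 CPM at the third passage and 4.36, 6.14, 11.1 and 14.3 CPM at the first (log2 fold change -0.72, SE 0.10, adjusted p = 0.00412). Egr2 (-0.40), Egr3 (-0.33), Fosl1 (-0.36), Jund (-0.22), Klf2 (-0.39), Klf4 (-0.28), Klf6 (-0.18), Phlda1 (-0.28) and Ccn1 (-0.31) fell by the log2 fold changes given, and each was lost with at least 1 line left out. Among the feedback regulators, the ERK phosphatases Dusp4 (-0.55), Dusp5 (-0.37) and Dusp6 (-0.27), the ERK-pathway inhibitors Spred1 (-0.18) and Spred2 (-0.23) and the ETS factor Etv5 (-0.34) fell. Of these 6, Dusp6 and Etv5 were called with each line left out. The 3 members that rose were Nr4a2 (0.46), an orphan nuclear receptor, Btg2 (0.44), an antiproliferative gene, and Spry1 (0.39), an inhibitor of growth factor signalling. Nr4a2 was called with each line left out, and Btg2 was not called without F5. Spry1 lost its call whichever line was left out and was not called by DESeq2.

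Genes of the ATF4 and amino acid response fell, with 1 exception, where they were called. Of 36 tested, 20 fell and 1 rose, with a median log2 fold change of -0.21. The lower count was 14 without F5, 13 without G5, 16 without H7 and 20 without the parental line, and 0 in the fit of 12 libraries. DESeq2 called 20 lower. ATF4 binds the C/EBP-ATF response element, searched for as TGATGCAA and, on the other strand, TTGCATCA. It was found in 3 of the 16 fallen members with a promoter entry, or 18.8%, and in 66 of 9619 tested genes, or 0.686%. The stretches that hold it are shown with the element in capitals, read as above from RefSeq on GRCm38.p6.
Aars (chr8:111033710-111033757, plus strand): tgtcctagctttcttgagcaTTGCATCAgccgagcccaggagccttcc
Slc7a11 (chr3:50443633-50443699, minus strand): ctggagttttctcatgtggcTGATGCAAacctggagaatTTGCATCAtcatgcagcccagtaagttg
Tars (chr15:11399659-11399693, minus strand): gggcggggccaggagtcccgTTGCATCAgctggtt

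Gpt2, a mitochondrial alanine transaminase (chromosome 8, 85492576 to 85527560), had 84.7, 80.8, 76.9 and 35.3 CPM at the third passage, against 114, 105, 110.2 and 47.1 CPM at the first. It was lower in every line, and the passages overlapped only through the low parental values (log2 fold change -0.44, SE 0.040, adjusted p = 0.000747). Asns, asparagine synthetase (chromosome 6, 7675169 to 7693254), had 258, 249, 200.4 and 132 CPM at the third passage, against 315, 295, 267 and 169 CPM at the first (log2 fold change -0.32, SE 0.037, adjusted p = 0.00176). Mthfd2, an enzyme of mitochondrial one-carbon metabolism, had 134, 126, 102 and 79.6 CPM at the third passage, against 166, 165, 129 and 94.7 CPM at the first (log2 fold change -0.33, SE 0.038, adjusted p = 0.00176). Slc7a5, the large neutral amino acid transporter, had 263, 248, 246 and 129.9 CPM at the third passage, against 350.5, 317, 355 and 151 CPM at the first (log2 fold change -0.38, SE 0.048, adjusted p = 0.0026). In all 4 genes the parental library lay below the clones at both passages.

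The rest of the list divides into the same roles. Serine and one-carbon enzymes Phgdh (-0.25), Psat1 (-0.18), Psph (-0.29), Shmt2 (-0.20) and Aldh1l2 (-0.29) fell, as did the aminoacyl-tRNA synthetases Tars (-0.25), Nars (-0.22), Gars (-0.21), Sars (-0.20) and Aars (-0.18). The transporters Slc7a1 (-0.29), Slc3a2 (-0.22) and Slc7a11 (-0.37) fell too, with Pck2 (-0.28), Cth (-0.34) and Trib3 (-0.38), all as log2 fold changes. Ddit3, the stress factor CHOP, rose (log2 fold change 0.18, SE 0.046, adjusted p = 0.0465), and its call was lost with each line left out. Atf4 itself had 492, 503, 449.9 and 312 CPM at the third passage, against 553, 559.6, 469 and 321 CPM at the first, and was not called (log2 fold change -0.11, SE 0.034, adjusted p = 0.0832). Of the 21 called members, 11 were called with each line left out. Genes of endoplasmic reticulum chaperones and the unfolded protein response, by contrast, held 0 higher and 1 lower call of 27, Ero1l (-0.35), with a median of 0.08. Ero1l was not called without F5 (log2 fold change -0.34).

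Clock genes moved in opposite directions. Of 19 tested, 6 fell and 3 rose, with a median of -0.16. The lower count was 3 without F5, 3 without G5, 8 without H7 and 6 without the parental line. Nr1d1, the repressor REV-ERB alpha (chromosome 11, 98767932 to 98775333), had 16.7, 16.2, 22.9 and 14.8 CPM at the third passage, against 30.9, 31.4, 36.6 and 23.8 CPM at the first (log2 fold change -0.81, SE 0.061, adjusted p = 0.000338). Nr1d2, its paralog, had 37.2, 38.9, 39.8 and 31.3 CPM at the third passage, against 50.2, 57.2, 56.5 and 40.5 CPM at the first (log2 fold change -0.47, SE 0.044, adjusted p = 0.000821). For both the passages did not overlap. Ciart, a repressor of the clock, had 4.16, 3.06, 3.62 and 1.71 CPM at the third passage, against 6.73, 5.65, 6.37 and 3.27 CPM at the first (log2 fold change -0.82, SE 0.11, adjusted p = 0.00317).

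Dbp (-0.49) and Tef (-0.26), bZIP output factors, and Per2 (-0.28), a core repressor, fell with them, and each of these 3 was lost without F5 or G5. Hlf, the third factor of the family of Dbp and Tef, rose as given above, so that members of one family moved opposite ways. Nfil3, which represses the targets of these factors, had 28.4, 26.3, 38.2 and 33.7 CPM at the third passage, against 20.8, 24.1, 29.4 and 23.2 CPM at the first (log2 fold change 0.37, SE 0.066, adjusted p = 0.0106). Usp2, a clock-controlled ubiquitin protease, had 10.5, 13.3, 22.6 and 23.8 CPM at the third passage, against 7.69, 10.2, 14.7 and 17.4 CPM at the first (log2 fold change 0.48, SE 0.063, adjusted p = 0.00297). Nfil3 was not called without F5 (log2 fold change 0.34). The E-box CACGTG, which the clock activators bind and which reads the same on both strands, was found before the start of 2 of the 8 called members with a promoter entry, or 25%, and of 956 of 9619 tested genes, or 9.94%. Stretches before these 2 genes are shown from RefSeq on GRCm38.p6 with the E-box in capitals. Of 2 Tef stretches with the E-box, 1 is shown.
Ciart (chr3:95882247-95882364, minus strand): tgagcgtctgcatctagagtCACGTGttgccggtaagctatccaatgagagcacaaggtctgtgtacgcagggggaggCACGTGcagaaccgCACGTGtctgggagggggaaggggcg
Tef (chr15:81802526-81802571, plus strand): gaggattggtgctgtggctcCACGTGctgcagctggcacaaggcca

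Type I interferon-stimulated genes and complement genes were higher where they were called. Of 24 interferon-stimulated genes tested, 6 rose and 0 fell, with a median of 0.18. DESeq2 called 3 higher and 0 lower, and 1 was lower at an unadjusted p under 0.05 in edgeR. For Isg15 DESeq2 gave no adjusted p, so that gene is not among its 3. The higher count was 3 without F5, 1 without G5, 2 without H7 and 4 without the parental line, and 1 in the fit of 12 libraries. Isg15, a ubiquitin-like modifier, had 0.809, 1.27, 2.28 and 1.27 CPM at the third passage, against 0.306, 0.459, 0.875 and 0.627 CPM at the first (log2 fold change 1.31, SE 0.21, adjusted p = 0.00678). Ifi44 had 1.81, 2.15, 3.23 and 2.505 CPM at the third passage, against 0.765, 0.741, 1.51 and 1.79 CPM at the first (log2 fold change 1.05, SE 0.20, adjusted p = 0.0132), and was not called without F5 (log2 fold change 1.00), G5 (log2 fold change 0.92) or H7 (log2 fold change 1.04). Stat2, a transcription factor of interferon signalling, had 18.4, 21.7, 12.7 and 19.2 CPM at the third passage, against 15.3, 15.7, 8.48 and 16.2 CPM at the first (log2 fold change 0.38, SE 0.070, adjusted p = 0.0116), and was not called without G5 (log2 fold change 0.36).

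Each of these was higher at the third passage in all 4 lines. Usp18 (1.21), Ifi203 (0.46) and Ddx58 (0.34), the RNA sensor RIG-I, were the other 3, and each was lost with at least 3 of the lines left out singly. The interferon-stimulated response element was searched for as GAAANGAAA and GAAANNGAAA and, on the other strand, TTTCNTTTC and TTTCNNTTTC, and a gene counted once whatever its matches, which can overlap. It was present before the start of all 5 risen members with a promoter entry, and of 496 of 9619 tested genes, or 5.16%. Uncalled members of the list were not counted apart, so this share is not tied to the rise. The stretches before Isg15 and Ifi44 are shown from RefSeq on GRCm38.p6. Capitals mark matches that do not overlap one another, so that a further match overlapping them in Isg15 is in part lower case.
Isg15 (chr4:156200855-156200966, minus strand): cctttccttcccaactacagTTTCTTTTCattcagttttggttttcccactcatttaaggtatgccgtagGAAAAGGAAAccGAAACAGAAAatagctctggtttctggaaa
Ifi44 (chr3:151749930-151749978, minus strand): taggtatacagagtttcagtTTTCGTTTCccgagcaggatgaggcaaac

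Of 12 complement genes tested, 5 rose and 0 fell, with a median of 0.25. DESeq2 called 4 higher and 0 lower, and 2 were lower at an unadjusted p under 0.05 in edgeR. The higher count was 2 without F5, 2 without G5, 5 without H7 and 5 without the parental line, and 0 in the fit of 12 libraries, where none of the 5 calls was kept. C3, the central component of complement (chromosome 17, 57203970 to 57228136), had 1.19, 1.15, 2.75 and 2.07 CPM at the third passage, against 0.344, 0.247, 0.517 and 0.8504 CPM at the first (log2 fold change 1.88, SE 0.25, adjusted p = 0.00303). C1s1, a protease of the first component, had 24.4, 27.6, 25.5 and 20.8 CPM at the third passage, against 9.95, 8.64, 11.7 and 15.6 CPM at the first (log2 fold change 1.12, SE 0.16, adjusted p = 0.00412). For both the passages did not overlap. C1ra (0.49) and the scavenger receptor Colec12 (0.34) rose too, and were lost without F5 or without G5. C1ra and C1s1 have close tandem copies, so that reads may have been split between them. Cd55 (0.99), which limits complement on the cell surface, had 3.93, 3.98, 0 and 21.5 CPM at the third passage, against 1.61, 1.45, 0.119 and 13.3 CPM at the first. It was higher in 3 of 4 lines and listed near 0 in H7, and was not called without F5 (log2 fold change 0.89) or G5 (log2 fold change 0.83).

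Chemokines and cytokines had 4 higher and 0 lower of 15, with Il1rl1, the receptor of interleukin 33, at 1631, 1791, 1598 and 2623 CPM at the third passage, against 1486, 1445, 1180.1 and 1794 CPM at the first (log2 fold change 0.36, SE 0.065, adjusted p = 0.0114). Cx3cl1 (0.32), Ccl2 (0.58) and Ccl7 (0.55) were the other 3, and none of the 4 was called without G5. NF-kappaB genes had 0 higher and 1 lower of 19, the mitochondrial superoxide dismutase Sod2 (-0.18), and MHC class I presentation had 1 higher and 0 lower of 16, Tapbp (0.18). Both were lost without F5 or without G5.

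Of 5 listed proliferins, prolactin-like secreted proteins known from growing mouse 3T3 cells, 2 were tested and both fell. Prl2c2 (chromosome 13, 12996125 to 13005383) had 27.8, 19.5, 26.2 and 53.4 CPM at the third passage, against 65, 35.6, 78.6 and 96.2 CPM at the first (log2 fold change -1.13, SE 0.11, adjusted p = 0.000903). Prl2c3 (chromosome 13, 12790816 to 12800079) had 2.31, 1.59, 3.38 and 17.6 CPM at the third passage, against 10.3, 4.62, 15 and 35.8 CPM at the first (log2 fold change -1.61, SE 0.18, adjusted p = 0.00172). Both were lower in each line and called with each line left out and in the fit of 12 libraries. The family members are nearly identical, so how reads were divided between them is uncertain.

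Of 50 S-phase and replication genes, 0 rose and 4 fell (Pold1, Ccne1, Dtl and Cdt1, by 0.18 to 0.26 on the log2 scale), and of 45 genes of G2 and mitosis 3 rose (Racgap1, Kif11 and Top2a, by 0.14 to 0.18) and 0 fell. The share that fell was 8.0% of the S-phase list, and the share that rose 6.67% of the mitosis list, against 4.88% lower and 4.64% higher over all genes. At an unadjusted p under 0.05, 14 S-phase genes were lower and 0 higher, and 19 mitosis genes were higher and 1 lower. The change was above 0 for 40 of the 45 mitosis genes and below 0 for 33 of the 50 S-phase genes. None of the 7 calls held with each line left out. Without G5, 0 genes of either list were called. Mki67, the proliferation marker, had 485, 495, 457 and 495 CPM at the third passage, against 452, 485, 417 and 494 CPM at the first, and was not called (log2 fold change 0.07, SE 0.033, adjusted p = 0.253). Of 47 replication-dependent histone genes 0 rose and 1 fell, Hist1h2an (-0.28), which was lost without any one clone.

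Of 7 D cyclins and CDK inhibitors tested, which set the pace of the G1 phase, 2 fell and 3 rose. Ccnd1, cyclin D1 (chromosome 7, 144929931 to 144939925), had 216, 182, 182 and 121 CPM at the third passage, against 247, 247, 255 and 169 CPM at the first (log2 fold change -0.40, SE 0.051, adjusted p = 0.00266). Ccnd2 had 498, 477, 468 and 295 CPM at the third passage, against 550.1, 519, 522 and 329 CPM at the first (log2 fold change -0.15, SE 0.029, adjusted p = 0.0161). Cdkn2c, the CDK4 and CDK6 inhibitor p18, had 70, 71.1, 66.05 and 83.4 CPM at the third passage, against 58.03, 61.8, 57.3 and 68.4 CPM at the first (log2 fold change 0.24, SE 0.039, adjusted p = 0.00685). Cdkn2d (0.41) and Cdkn1b (0.23) rose as well. All 5 changed in the stated direction in all 4 lines, and the call of Ccnd1 held with each line left out. Ccnd2 was not called without F5 (log2 fold change -0.15) or G5 (log2 fold change -0.15), and Cdkn2c was not called without F5 (log2 fold change 0.23). Cdkn2d was not called by DESeq2 and was not called without F5 (log2 fold change 0.36), G5 (log2 fold change 0.44) or H7 (log2 fold change 0.40), and Cdkn1b was not called without G5 (log2 fold change 0.24) or H7 (log2 fold change 0.22). Of 29 p53 targets 1 rose, Btg2, and 3 fell, Bbc3 (-0.38), Phlda3 (-0.22) and Ccng1 (-0.18), and none of the 4 held with each line left out. Cdkn1a, the CDK inhibitor p21, had 144, 118, 129 and 52.1 CPM at the third passage, against 150.5, 130.3, 156 and 56.8 CPM at the first (log2 fold change -0.15, SE 0.043, adjusted p = 0.0572). Senescence-associated secreted proteins and regulators had 6 higher and 2 lower of 23, with a median of 0.09. Stc1, the secreted hormone stanniocalcin (log2 fold change 1.17, SE 0.16, adjusted p = 0.00333), Igfbp4 (0.96), Ccl2, Plau (0.44), Fgf7 (0.36) and Plat (0.32) rose. Plaur (-0.44), the receptor of the protease Plau, was among those that fell.

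Receptors and ligands of signalling pathways held scattered changes. In the BMP list 6 of 19 fell and 1 rose, and the lower count was 4 without F5, 2 without G5, 2 without H7 and 6 without the parental line. Smad9, a transducer of BMP signals, had 6.4, 7.12, 4.602 and 9.58 CPM at the third passage, against 10.7, 13.5, 7.68 and 15.2 CPM at the first (log2 fold change -0.77, SE 0.077, adjusted p = 0.001). It was lower in every line. Id3 (-0.20), Id4 (-0.33), Smad6 (-0.27) and Acvr1 (-0.21) fell and Gdf5 (1.45) rose, and each of these 5 was lost with at least 2 lines left out singly.

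In the TGF-beta list 5 of 26 fell and 2 rose, and the lower count was 2 without F5, 2 without G5, 6 without H7 and 6 without the parental line. Smad7, the inhibitory SMAD induced by TGF-beta, had 57.3, 50.2, 50 and 63.3 CPM at the third passage, against 77.01, 77.4, 75.1 and 81.6 CPM at the first (log2 fold change -0.50, SE 0.052, adjusted p = 0.0011). Its passages did not overlap. Ltbp2 (log2 fold change -0.32, SE 0.054, adjusted p = 0.00824), a protein of microfibrils, fell as well. Skil (-0.20) and Ltbp1 (-0.16) fell and the receptors Tgfbr2 (0.22) and Tgfbr3 (0.24) rose, and each of these 4 was lost without G5.

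In the Wnt list 5 of 25 fell and 3 rose, and the lower count was 3 without F5, 5 without G5, 5 without H7 and 7 without the parental line. Lef1, a transcription factor of the pathway, had 12.5, 11.9, 11.9 and 7.51 CPM at the third passage, against 18.4, 19.5, 17 and 11.1 CPM at the first (log2 fold change -0.59, SE 0.063, adjusted p = 0.00127). Fzd5, a Wnt receptor, had 30.7, 29, 20.3 and 40.8 CPM at the third passage, against 38.6, 38.6, 26.2 and 53.04 CPM at the first (log2 fold change -0.37, SE 0.040, adjusted p = 0.00131). The receptors Fzd7 (-0.39) and Ror1 (-0.49) and the secreted antagonist Sfrp1 (-0.61) fell, while the receptor Fzd1 (0.33), the coreceptor Lrp6 (0.18) and Dkk3 (0.28) rose. Of these 8, Lef1, Fzd5, Fzd7 and Fzd1 were called with each line left out. In the Notch list 2 of 13 fell, Notch4 and the ligand Jag1 (-0.28), and Jag1 was not called without F5 (log2 fold change -0.27), G5 (log2 fold change -0.30) or H7 (log2 fold change -0.21). Of 23 YAP and TEAD targets 5 fell and 1 rose, with Axl (log2 fold change -0.27, SE 0.041, adjusted p = 0.00566), a receptor kinase, Ajuba (-0.26), Nuak2 (-0.22), Wwc1 (-0.35) and Ccn1 lower and Asap1 (0.21) higher, and the lower count was 1 without F5, 1 without G5, 3 without H7 and 6 without the parental line. Of 26 contractile genes and SRF targets 3 fell, Srf, Itga5 (-0.23) and Fhl2 (-0.18), and the lower count was 1 without F5, 1 without G5, 2 without H7 and 4 without the parental line. Npr3, the clearance receptor of natriuretic peptides, was singled out after its values were seen, with 43.3, 42.8, 54.8 and 14.2 CPM at the third passage and 80.8, 73.2, 112 and 40.4 CPM at the first (log2 fold change -1.02, SE 0.093, adjusted p = 0.000723).

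Metabolic lists differed. Of 33 hypoxia and glycolysis genes 8 fell and 1 rose, with a median of -0.13, and the lower count was 2 without F5, 1 without G5, 6 without H7 and 13 without the parental line. Pfkl, a phosphofructokinase, had 180.2, 149, 80.1 and 90.5 CPM at the third passage, against 213, 196, 97.1 and 121 CPM at the first (log2 fold change -0.33, SE 0.041, adjusted p = 0.00238). Hk2 (-0.28), hexokinase 2, Slc2a1 (-0.23), the glucose transporter GLUT1, Pgam1 (-0.20), Aldoa (-0.13) and the mitophagy receptor Bnip3 (-0.23) fell as well, with P4ha1 and P4ha2, and Adm (0.50), the peptide adrenomedullin, rose. Among these 9, Pfkl alone was called with each line left out. Of 51 nuclear genes of oxidative phosphorylation 0 were called in edgeR or DESeq2, 2 were higher and 1 lower at an unadjusted p under 0.05 in edgeR, and the median was 0.00. Of 13 mitochondrially encoded genes 1 rose, mt-Atp6 (0.42), which was not called without F5 (log2 fold change 0.29) or G5 (log2 fold change 0.46). Mitochondrial genes took 2.88% of counts on average at the third passage and 2.42% at the first, higher in 3 of 4 lines (exact sign-flip test over lines, two-sided, p = 0.25, where 4 pairs cannot go below 0.13).

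Of 79 cytosolic ribosomal protein genes 0 rose and 2 fell, Rpl3 (-0.33) and Rps15a (-0.12), both lost without F5 or without G5. Cholesterol and fatty acid synthesis had 1 higher and 0 lower of 34, Nsdhl (0.25), lost without any one clone. Adipogenic and lipid storage genes had 3 higher and 0 lower of 16. Cebpd, a transcription factor of the C/EBP family, had 25.8, 30.8, 88.1 and 71.1 CPM at the third passage, against 13.9, 17.6, 49.5 and 51.5 CPM at the first (log2 fold change 0.73, SE 0.068, adjusted p = 0.000759). Cpt1a, which admits fatty acids to mitochondria, had 67, 70.7, 74.1 and 105 CPM at the third passage, against 51.5, 47.2, 56.1 and 72.9 CPM at the first (log2 fold change 0.47, SE 0.046, adjusted p = 0.000976). Both rose in every line, and Plin4 (0.75), a lipid droplet protein, was not called without F5 (log2 fold change 0.64) or G5 (log2 fold change 0.65).

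The stress and housekeeping lists that remain were mixed. NRF2 and glutathione genes had 3 higher and 4 lower of 31, with Gstm1, a glutathione transferase with close paralogs, at 69.1, 69.4, 96.6 and 69.7 CPM at the third passage, against 53.9, 48.7, 74 and 60.4 CPM at the first (log2 fold change 0.36, SE 0.051, adjusted p = 0.00377). Gstm2 (0.36) and the ferritin chain Fth1 (0.16) rose and Slc7a11, Gpx1 (-0.24), Sod2 and Prdx6 (-0.18) fell, and of the 7 Gstm1 alone held with each line left out. Heat shock genes had 1 higher and 4 lower of 20, with Fkbp4, an HSP90 cochaperone, falling (log2 fold change -0.23, SE 0.034, adjusted p = 0.00495). Ahsa1 (-0.16), Stip1 (-0.13) and Hsf1 (-0.17) also fell and were lost without any one clone. Hspa1b (0.45), lost without G5, rose, a gene with a near-identical copy in Hspa1a. Metal-handling genes had 2 higher, Cp (0.30) and the iron exporter Slc40a1 (0.57), and 1 lower of 10, Slc30a1, and the first 2 were lost without any one clone. Lysosomal genes had 4 higher and 0 lower of 36, Npc2 (0.14), Ctsb (0.21), Galns (0.30) and Gla (0.41), and without F5 or without G5 there were 0.

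Imprinted genes had 5 higher and 0 lower of 21, with a median of 0.13, and the higher count was 3 without F5, 3 without G5, 6 without H7 and 8 without the parental line. Peg3, a paternally expressed zinc-finger gene, had 51.5, 92, 23.4 and 75.8 CPM at the third passage, against 43.6, 65.4, 17.3 and 56.9 CPM at the first (log2 fold change 0.40, SE 0.049, adjusted p = 0.00246). Meg3, a maternally expressed long non-coding RNA, had 756, 725, 843 and 809 CPM at the third passage, against 619, 593, 686 and 741 CPM at the first (log2 fold change 0.25, SE 0.037, adjusted p = 0.0046). Rian (0.19) and Mirg (0.24), its neighbours in the Dlk1-Dio3 region, and Impact (0.25) rose too. Nuclear and small-RNA-host non-coding RNAs had 4 higher and 3 lower of 32. Malat1, a nuclear RNA, had 16706, 17648, 15943 and 13012 CPM at the third passage, against 14183, 14475, 12856 and 11294 CPM at the first (log2 fold change 0.26, SE 0.057, adjusted p = 0.0246), and was not called without F5 (log2 fold change 0.26) or G5 (log2 fold change 0.25). Neat1 (0.25), Mir22hg (0.33) and Meg3 rose, and the snoRNA hosts Snhg17 (-0.22), Gas5 (-0.17) and Snhg1 (-0.13) fell, and of the 7 Meg3 alone held with each line left out. Metalloproteinases and inhibitors had 2 higher and 2 lower of 23. Adam19, a membrane protease, had 95.3, 83.5, 71.6 and 101 CPM at the third passage, against 121, 112, 103 and 132 CPM at the first (log2 fold change -0.42, SE 0.042, adjusted p = 0.001), and Mmp19 rose (log2 fold change 0.44, SE 0.059, adjusted p = 0.00317), both called with each line left out. Adam12 (-0.31) fell and Reck (0.37), a membrane inhibitor of such proteases, rose, and both were lost without G5. Of the fibroblast markers, Thy1 (log2 fold change 0.52, SE 0.046, adjusted p = 0.000655), S100a4 (0.22), Prrx1 (0.22), Lox and Pdgfra rose and Twist1 (-0.19) fell. Prrx1, like Lox, was not called without G5. Twist1 lost its call whichever line was left out and was not called by DESeq2.

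In all 4 lines, the middle value lay between the first and the third for 9 of the 654 higher genes (1.38%) and 19 of the 687 lower genes (2.77%), against 99 of all genes tested (0.703%). The middle value exceeded both the first and the third in all 4 lines for 281 of the higher genes (43.0%), against 13.7% of all genes tested. It lay below both in all 4 lines for 176 of the lower genes (25.6%), against 13.6% of all genes tested. These shares are descriptions, since the genes were chosen by the difference of the third and the first and the first-passage value enters both.

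Among the higher genes the median rise from the first passage was larger at the middle passage than at the third in every line. It was 0.45 at the middle and 0.29 at the third passage in F5, 0.44 and 0.34 in G5, 0.39 and 0.35 in H7, and 0.76 and 0.28 in the parental line, on the log2 scale. Among the lower genes the medians were -0.27 and -0.24 in F5, -0.24 and -0.26 in G5, -0.21 and -0.26 in H7, and -0.55 and -0.20 in the parental line. In both sets the parental line stood farther from its first passage at the middle than at the third. So did F5, while G5 and H7 did so among the higher genes but not among the lower.

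Cemip shows the common course, with 12.9, 20.4, 112 and 149 CPM at the first passage, 103, 153, 449.9 and 1037 at the middle and 33.3, 57.9, 268 and 407 at the third. Hlf had 8.67, 19.2, 15.9 and 44.4 CPM at the middle passage, above both the first and the third values in each line. Prl2c2 mirrors it from below, with 9.05, 5.36, 11.2 and 9.505 CPM at the middle passage, under both other passages in each line. Egr1 had 206, 168, 206 and 294 CPM at the middle passage, already near its third-passage values in the clones and between the first and the third in the parental line. Of the called genes whose middle value lay between the first and the third in all 4 lines, 6 are named for the size of their change. Slc30a1 had 17, 19.1, 18.3 and 21.8 CPM at the middle passage, nearer its first-passage than its third-passage values. Rpl10a-ps1 and the predicted genes Gm42793 (1.15), Gm10748 (1.02), Gm44280 (-0.99) and Gm15535 (0.87) were the other 5, with log2 fold changes of the third over the first given. Of these 6, Slc30a1, Rpl10a-ps1 and Gm42793 were called with each line left out.

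**Figure D4:**
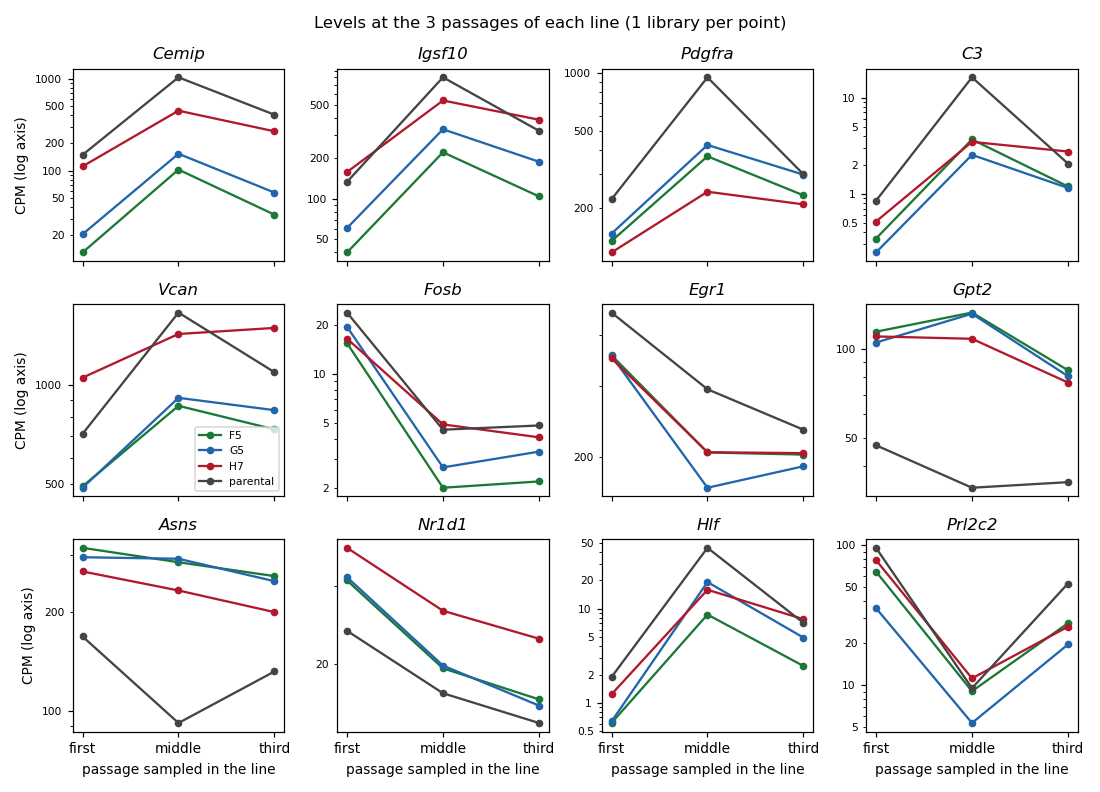
Levels in CPM (log axis) of 12 genes at the first, the middle and the third passage of F5, G5, H7 and the parental line, 1 library per point. Cemip, Igsf10, Hlf and C3 peaked at the middle passage in all 4 lines, Prl2c2 was lowest there, and Nr1d1 fell at each step.

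**Figure D5:**
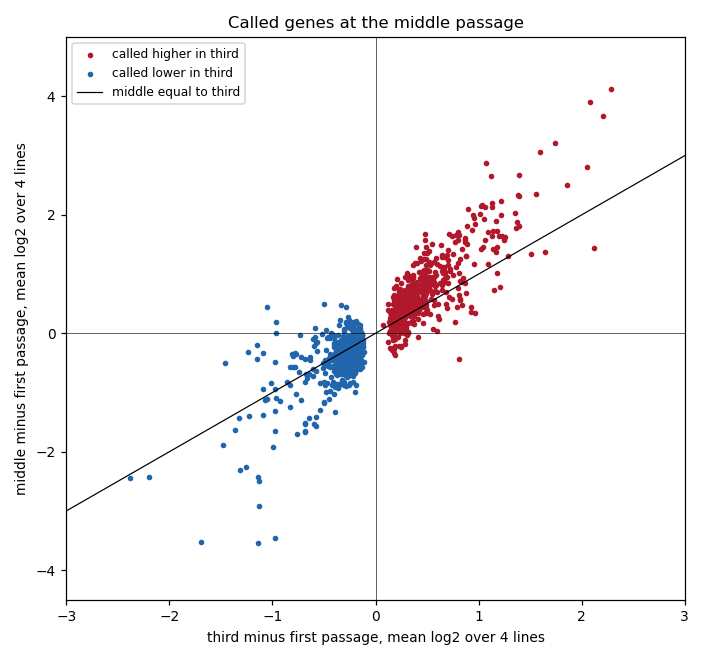
Mean log2 difference of middle minus first passage (vertical) against the third minus the first passage (horizontal) over the 4 lines, for the 654 genes called higher (red) and the 687 called lower (blue), 1 point per gene. The middle passage was farther from the first than the third was for 508 of the 654 higher genes (above the line of equal change) and 441 of the 687 lower genes (below it). The same count over all genes tested was not made.

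The S-phase, mitosis and histone lists, which held 8 calls between the third and the first, had medians below 0 at the middle passage. The median difference of middle minus first passage was -0.44 over the S-phase list, -0.36 over G2 and mitosis and -0.46 over the histones, on the log2 scale and with no test. Against these, the medians of the third over the first were -0.05, 0.08 and -0.01. Growth-arrest genes stood at 0.47 and complement genes at 0.99 above their first-passage values at the middle passage, in the median of each list.

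Whether the change from the first to the third passage differed between clones and parental line was tested as an interaction, with 1 parental pair of libraries against 3 clone pairs and 2 residual degrees of freedom. Of 14086 genes 12 (0.0852%) were called, 9 with a change that was lower and 3 with one that was higher in the clones. Tiparp, an ADP-ribosyltransferase induced by dioxin-type ligands (chromosome 3, 65528410 to 65555518), had 54.9, 56, 55.7 and 128 CPM at the third passage, against 55.4, 60.1, 61.2 and 56.3 CPM at the first. Its level was higher at the third passage in the parental line only, and the change in clones minus that in the parental line was -1.27 on the log2 scale (adjusted p = 0.00261). Gpc1, a heparan sulfate proteoglycan of the cell surface, had 167, 144, 214 and 338 CPM at the third passage, against 174, 152, 228 and 189 CPM at the first, with a difference of -0.92 (adjusted p = 0.00261). Ptgs2, the prostaglandin-forming cyclooxygenase COX-2, had 241, 303, 321 and 581 CPM at the third passage, against 313, 442, 413 and 419 CPM at the first, with a difference of -0.90 (adjusted p = 0.00723).

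In all 3 genes each of the 3 clones was lower and the parental line higher at the third passage. Igf2, an imprinted growth factor, moved the other way, with 2.004, 1.75, 16.4 and 100.3 CPM at the third passage and 1.19, 0.706, 7.08 and 127 CPM at the first, and a difference of 1.48 (adjusted p = 0.00723). The pseudogenes Gm7336 and Gm15501 completed the first 6, with differences of -0.68 and 1.39 (adjusted p = 0.00723 for each), and their reads may come from parent genes. The remaining 6 had larger p-values. They include Nqo1, a quinone reductase of the NRF2 list, with 36.5, 40.7, 63.7 and 77.4 CPM at the third passage and 36.2, 40.01, 63.5 and 46.3 CPM at the first, a difference of -0.73 and an adjusted p = 0.0267. Since these tests set a single parental pair against the clones, each rests on the parental libraries, and their part cannot be told apart from that of the line.

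By chromosome, the median change of the third over the first stayed near 0 in each line. Over 20 chromosomes with at least 50 tested genes and 4 lines, the medians lay between -0.06 and 0.06 on the log2 scale. The non-coding transcript Gm26917, treated here as a structural RNA, took 7.86% of counts on average at the third passage and 8.94% at the first. It was lower in 3 of 4 lines (exact sign-flip test, two-sided, p = 0.25). The 7SL RNAs Rn7s1 and Rn7s2 together took 2.78% and 2.79% (exact p = 1), and replication-dependent histones 0.561% and 0.556% (exact p = 0.5), the third passage before the first.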

How the data were processed

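Total RNA of 12 NIH3T3 libraries was measured by paired-end RNA sequencing, per the labels, and the 8 libraries of the third and the first passage entered the comparison. Deposited by the authors were estimated counts per gene, neither normalised nor all whole, and TPM values, in which each column sums to 1000000. The genome build is GRCm38 per the submitters' processing notes. The sources used here give no aligner, counter or annotation, and not whether strand was used. Gene names and positions were matched by identifier to GENCODE M21, which gave a symbol to 48435 of 48795 identifiers.

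The counts were rounded to whole numbers and tested with edgeR 4.0.16 (R 4.3.3) by the quasi-likelihood test, with TMM factors of 0.979 to 1.033, genes filtered by filterByExpr with a minimum count of 10, and line as a block. This left 3 residual degrees of freedom and a biological coefficient of variation of 6.60%. P-values were adjusted by Benjamini-Hochberg over 14086 genes, and a gene was called at an adjusted p under 0.05. The block pairs the passages of one line, as the labels give them. As a check, deviations from the passage means correlated over genes between the third and the first passage at 0.625 to 0.831 within the 4 lines and at -0.543 to 0.392 between lines. The clones' change was set against the parental line's in an interaction fit with 2 residual degrees of freedom.

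The members and the gene lists were chosen with earlier results of these data known, and the promoter motifs after the values were seen. Genes were named by rule: Aebp1, the 12 genes of largest change in each direction, up to 4 genes of smallest p in each list and all of short lists, 6 genes of smallest p for the difference between clones and parental line, 6 with an intermediate middle passage, and the 3 largest rises and falls within each line. Further called members of the lists are named with their changes. Some called members are not reported here. Alternatives were DESeq2 1.42.0 size factors and its Wald test, no filter, no block, all 12 libraries with passage as 3 levels or as a slope, limma 3.58.1 on log2(TPM + 1) and log2(TPM + 0.1), structural RNAs left out and each line left out. The counts of called list members under these alternatives were added after the data were seen. In simulated data of 13964 genes for the third against the first passage, 35 of 50 genes changed 1.3-fold, 43 of 50 changed 1.5-fold and 50 of 50 changed 2-fold were recovered, with 7 false calls. The changed genes were drawn from those with an average above 1 on the log2 CPM scale, so these rates do not cover lower genes. All counts were drawn with the spread typical of a gene's level. Single values over the 4 lines were tested by exact sign flips, which cannot go below p = 0.13. The depth of 22441848 to 28207122 counts per library limits low genes most. In promoters, 250 bases before each RefSeq gene start were searched. For none of the motifs were uncalled list members counted apart, so the shares among called members are not tied to their change.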

Additional observations from a re-analysis of the deposited data

Results flagged for a closer look

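Changes of the third minus the first passage were looked at in 4 lines for 208 quantities, and in 11 of them 1 line stood apart from the other 3. Chance alone sets about 1 in 20 such groups apart. That rate does not hold for genes named by a large change in 1 line or by the interaction test. Tiparp, Gpc1, Gm7336 and Gm10240 were named in these ways. Ccnd1, cyclin D1, changed by -0.19 on the log2 scale in F5, against -0.49 to -0.44 in the other lines. Nsdhl, an enzyme of cholesterol synthesis, changed by 0.55 in H7, against 0.14 to 0.19 elsewhere, and Stip1, an HSP90 cochaperone, by -0.20 in G5, against -0.11 to -0.098. H2-M3, a class Ib MHC gene, changed by 0.72 in H7, against 0.26 to 0.29, Meg3 by 0.13 in the parental line, against 0.29 to 0.30, and Fgf7, a fibroblast growth factor, by 0.55 in H7, against 0.29 to 0.32. The parental line stood apart for Tiparp (1.18, against -0.14 to -0.01 in the clones), Gpc1 (0.83, against -0.09 to -0.06) and the pseudogene Gm7336 (0.48, against -0.21 to -0.18). The predicted gene Gm10240 changed by 3.80 in G5, against -0.41 to -0.29 elsewhere. The share of counts in the 7SL RNAs Rn7s1 and Rn7s2 changed by -0.452 percentage points in G5, against 0.0958 to 0.163 in the other lines.

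For 7 of the 204 named genes the interaction test put a difference between the clones' change and the parental line's. All but Ahrr of these 7 were named for their small p in this same test, so the choice of genes set their flags in advance. These differences, clones minus parental line, were -1.27 for Tiparp, -0.92 for Gpc1, -0.68 for Gm7336, 1.39 for Gm15501, -0.90 for Ptgs2, 1.48 for Igf2 and -2.92 for Ahrr, on the log2 scale. The adjusted p was 0.00261 for Tiparp and Gpc1, 0.00723 for Gm7336, Gm15501, Ptgs2 and Igf2, and 0.0400 for Ahrr.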

How the results depend on the processing

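Against 1341 genes called, DESeq2's size factors gave 1355, no filter 1677 and leaving out structural RNAs 1339. The Wald test of DESeq2 called 854, limma 553 on log2(TPM + 1) and 518 on log2(TPM + 0.1), and limma without a filter 5, with 3051 at an unadjusted p under 0.05. Without the replicate block for line 0 genes were called, and 923 had an unadjusted p under 0.05. All 12 libraries gave 168 calls, 66.1% of them higher against 48.8% in the comparison of 8, and passage number as a slope 3. Leaving out 1 line gave 372 to 1739 calls, the lowest without G5. The 1341 genes kept their sign under each of these alternatives that gave them a value, except 1 gene in each limma fit. All of these fits reuse the libraries that chose the genes, so a kept sign is no separate test. Of 147 named genes that were called, 122 stayed called by DESeq2's Wald test, 41 with all 12 libraries, and 74 to 135 with 1 line left out. For the difference between clones and parental line, 12 calls became 188 with no filter, 27 by DESeq2's Wald test and 12 with its size factors. Changes of sign were met in genes that were not called: with no replicate block Ccnd3 stood at 0.00079 and Igf2 at -0.16. Rn7sk stood at -0.63 by DESeq2 and at -0.51, -0.71 and -0.51 by limma (pseudocounts 1 and 0.1, then no filter). Ahrr stood at 0.43, 0.037, 0.21 and 0.037 in the same order, and Gm23444 at 0.061 and 0.057 with 12 libraries as levels and as a slope. With 1 line left out, log2 fold changes spanned -0.044 to 0.021 for Ccnd3, -0.084 to 0.36 for Tiparp, -0.079 to 0.23 for Gpc1, -0.19 to 0.029 for Gm7336, -0.12 to 1.13 for Igf2, -1.02 to 1.07 for Rn7sk, -0.81 to 0.54 for Ahrr, -0.59 to 0.79 for Gm23444, -0.42 to 2.6 for Gm10240, -0.55 to 1.27 for Gm45062, -1.70 to 0.51 for Gm23849, -0.21 to 0.73 for Gm23971 and -1.35 to 0.44 for Rps12. The cause of these shifts was not tested. With 1 library for each line and passage, the spread among repeats of one passage was not measured.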

Other observations

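Cyp1b1, Ahrr, Tiparp, Nqo1 and Aldh3a1 were picked after their values were seen, so that they give no test as a group, and their values in the parental line come from 1 pair of libraries. All 5 are known as genes that the aryl hydrocarbon receptor, a transcription factor that binds dioxin-type ligands, can induce. Cyp1b1, a cytochrome P450, had 44.1, 43.3, 11 and 108 CPM at the third passage of F5, G5, H7 and the parental line, against 37.3, 27.5, 7.56 and 42.2 CPM at the first (log2 fold change 0.73, SE 0.15, adjusted p = 0.0199). Ahrr, the repressor of the receptor, had 7.09, 3.46, 0.0787 and 9.05 CPM at the third passage, against 12.4, 6.42, 0 and 2.104 CPM at the first, lower in F5 and G5 and higher in the parental line. Between passages over the 4 lines, Cyp1b1 and Aldh3a1 were called and Ahrr, Tiparp and Nqo1 were not. In the parental pair all 5 were higher at the third passage. Cyp1b1 and Aldh3a1 were also higher in each clone, Tiparp was lower in each clone, and Nqo1 stayed within 0.03 of its first-passage level in each clone on the log2 scale. The interaction reached an adjusted p of 0.00261 for Tiparp, 0.0267 for Nqo1 and 0.0400 for Ahrr, and was 0.0856 for Cyp1b1 and 0.461 for Aldh3a1.

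The widest changes within single lines were often in short or repeated transcripts, for which reads are hard to assign, and are given with no test. Rn7s1, a 7SL RNA, had 7886, 8289, 20164 and 8044 CPM at the third passage, against 15997, 17593, 143 and 143 CPM at the first, while the share of Rn7s1 and its near copy Rn7s2 together averaged 2.78% and 2.79% of counts. Rn7sk, the 7SK RNA, had 0.193, 14.4, 0.865 and 13.7 CPM at the third passage, against 9.45, 5.01, 5.57 and 0.94 CPM at the first. Both moved in opposite directions between lines. Among the other widest changes in the parental line, mt-Co2, a mitochondrial cytochrome oxidase subunit, had 15.1, 71.1, 119 and 21.9 CPM at the third passage, against 45.6, 80.2, 83.7 and 131 CPM at the first. Gm42713 had 16, 30, 1.61 and 1.05 CPM at the third passage, against 15.5, 14.9, 15.6 and 28.3 CPM at the first, and Gm23444, a small nuclear RNA, had 17.8, 20.1, 37.3 and 5.36 CPM, against 21.04, 9.56, 12.5 and 40.9 CPM. In F5 the widest changes included Gm20388, with 17, 49.4, 25.2 and 11.9 CPM at the third passage and 3.44, 13.4, 17.5 and 4.61 CPM at the first, and Entpd4b, with 1.89, 9.75, 12 and 10.3 CPM and 10.1, 15.2, 10.8 and 10.6 CPM. In G5 they included the pseudogene Gm10240, with 0.385, 11.8, 0.669 and 0.132 CPM at the third passage and 0.497, 0.776, 0.915 and 0.179 CPM at the first, and Gm45062, with 1.002, 10.8, 2.64 and 2.37 CPM and 1.57, 0.811, 2.39 and 5.24 CPM. The small nuclear RNA Gm23849 had 1.85, 17.1, 4.09 and 2.33 CPM at the third passage, against 2.07, 2.36, 21.7 and 7.83 CPM at the first, the third passage high in G5 and the first high in H7. In H7 the small nuclear RNAs Gm23971 and Rnu2-10 and Rps12, a ribosomal protein gene, stood out. Gm23971 had 95.5, 49.6, 108 and 104 CPM at the third passage, against 108, 83.7, 21.7 and 84.8 CPM at the first, Rnu2-10 had 0.617, 4.54, 4.09 and 1.23 CPM, against 2.07, 2.36, 21.7 and 7.83 CPM, and Rps12 had 3.85, 0, 9.44 and 1.71 CPM, against 2.45, 2.82, 2.11 and 7.74 CPM.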
